A study of Mus musculus with 6 samples.

Results

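The retinoid receptors and retinoid binding proteins were examined in otic vesicles, the epithelial precursors of the inner ear, dissected from mouse embryos at embryonic day 11.5. The 9 genes were Rara, Rarb, Rarg, Rxra, Rxrb, Rxrg, Crabp1, Crabp2 and Stra6. Their members were all probe sets that the platform annotation assigns to 1 of these symbols alone, 12 of the 45037 probe sets on the array that are not controls. Rarg was read by 2 probe sets, Rxra by 3 and the other 7 genes by 1 each, and no member symbol stood in a probe set with several symbols.

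The Mest-KO group comprised T-Cre conditional Tbx1 knockout embryos, in which the transcription factor gene Tbx1 is deleted by T-Cre, a recombinase expressed in the early mesoderm. The control group comprised T-Cre conditional Tbx1 heterozygotes, so both groups carried T-Cre and at least 1 changed Tbx1 allele. Each group had 3 arrays, described in the labels as biological replicates, and each array held RNA pooled from both ears of 3 embryos with 1 genotype. The comparison asks how these genes in the vesicle differ when Tbx1 is lost from the mesoderm. Arrays are named by group and replicate number, and the labels do not state that the numbers pair the pools.

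Retinoic acid, made from vitamin A, acts through nuclear receptors. Retinol is carried in blood by a binding protein and enters cells through Stra6, a membrane receptor for that carrier. Inside the cell, Crabp1 and Crabp2 bind retinoic acid. Crabp2 hands it to receptors in the nucleus, while Crabp1 is linked to its sequestration and breakdown. Rara, Rarb and Rarg are the retinoic acid receptors, and they bind DNA as dimers with one of the retinoid X receptors Rxra, Rxrb and Rxrg, which also pair with other nuclear receptors. Too little or too much retinoic acid disturbs the patterning of the inner ear.

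The classical binding site of these dimers is a direct repeat of a hexamer, with A or G, then G, then G or T, then T, C and A. The repeats are named by their spacing, and DR5 has 5 bases between the hexamers. Promoter windows from RefSeq (GRCm38.p6), from 250 bases before to 50 bases after each annotated start, were available for 8 of the 9 genes, 18 windows in all. Both strands were searched for hexamers and for repeats with a spacing of 1, 2 or 5 bases. A repeat was found in 1 of the 18 windows, that of Rarb, where a DR5 repeat on the strand of the gene begins 53 bases before the start. Over all 32851 windows of the same length, 0.0974% held a DR5 repeat, and 0.588% held a repeat of any of the 3 spacings. At least 1 hexamer alone was found in 8 of the 18 windows, against 43.7% of all windows. The window of Rarb is shown because its DR5 repeat makes it a textbook promoter under retinoic acid control, and those of Rxrg and Crabp1 because these genes had the smallest p-values among the members. Capitals mark every hexamer on either strand. The Rarb window lies at chr14:16575427-16575726 on the minus strand. Both Rxrg windows, at chr1:167598112-167598411 and chr1:167618015-167618314, and the Crabp1 window, at chr9:54764498-54764797, lie on the plus strand.
Rarb: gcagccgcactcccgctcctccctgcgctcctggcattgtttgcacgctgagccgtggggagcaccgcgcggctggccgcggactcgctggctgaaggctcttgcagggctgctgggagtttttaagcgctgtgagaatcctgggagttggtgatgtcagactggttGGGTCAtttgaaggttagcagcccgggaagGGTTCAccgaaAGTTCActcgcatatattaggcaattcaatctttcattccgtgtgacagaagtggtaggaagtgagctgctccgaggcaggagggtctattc
Rxrg, first start: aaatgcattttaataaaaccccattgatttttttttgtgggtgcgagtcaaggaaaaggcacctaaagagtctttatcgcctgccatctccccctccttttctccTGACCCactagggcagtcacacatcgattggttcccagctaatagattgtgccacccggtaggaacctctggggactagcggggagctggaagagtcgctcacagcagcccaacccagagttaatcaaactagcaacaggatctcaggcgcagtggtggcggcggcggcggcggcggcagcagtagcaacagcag
Rxrg, second start: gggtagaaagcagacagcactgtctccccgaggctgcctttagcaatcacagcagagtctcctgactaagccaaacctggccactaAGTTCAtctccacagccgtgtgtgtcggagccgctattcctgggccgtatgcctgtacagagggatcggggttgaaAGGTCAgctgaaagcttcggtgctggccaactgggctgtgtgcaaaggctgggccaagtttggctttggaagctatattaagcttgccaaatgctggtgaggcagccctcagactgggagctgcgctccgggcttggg
Crabp1: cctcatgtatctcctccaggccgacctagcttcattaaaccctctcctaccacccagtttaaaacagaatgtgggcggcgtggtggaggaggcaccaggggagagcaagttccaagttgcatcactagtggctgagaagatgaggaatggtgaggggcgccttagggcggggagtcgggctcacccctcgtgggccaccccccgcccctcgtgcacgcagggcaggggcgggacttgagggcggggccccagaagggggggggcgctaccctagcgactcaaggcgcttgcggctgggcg
In the Rarb window the last 2 of the 3 hexamers in capitals form the DR5 repeat, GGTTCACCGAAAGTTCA. The Rxrg windows held 1 and 2 hexamers and the Crabp1 window held 0. A match describes the letters alone and does not show that a receptor binds there.

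The deposited values are intensities on a linear scale. They were set to at least 1, put on a log2 scale and quantile normalized, and the probe sets with a mean above the 40th percentile, an intensity of 34.4, were tested with limma. Differences are Mest-KO minus control in log2 units of the normalized values, with the standard error (SE) of the fit and n = 3 arrays per group. Values per array are the deposited intensities. Probes differ in their brightness, so levels were not compared between genes.

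Of the 12 member probe sets, 9 were tested and read 8 of the genes, all but Rara. None passed at a Benjamini-Hochberg adjusted p under 0.05, and the background was 0% of the 27022 probe sets tested (limma, smallest adjusted p 0.0823 over all and 0.969 among the members). At an unadjusted p under 0.05, limma found 2 member probe sets, Rxrg and Crabp1, both lower in Mest-KO, against 1076 of all probe sets, or 3.98%. In that direction the background was 2.25%, and 0 members passed in the other, where it was 1.74%. A plain two-sample statistic also called 0 probe sets after adjustment. The groups did not overlap for 3 of the 9 member probe sets, those of Rxrg, Crabp1 and Stra6, all lower in Mest-KO. The background was 9.37% in either direction, 5.20% for lower and 4.17% for higher. The difference lay below 0 in 8 of the 9, against 51.7% of all probe sets tested, and the median was -0.18, against -0.01 over all. Among these, the differences of Rxrb (-0.0025, SE 0.0924), Rxra (-0.08, SE 0.127) and Rarb (-0.09, SE 0.185) were smaller than their SE. Control 1 was the highest array for the tested probe sets of Rxra, Rxrb, Rxrg, Crabp1 and Stra6. Mest-KO 1 was the lowest for those of Rxra, Rxrb, Rxrg and Stra6. With array weights 7 of the 9 lay below 0, and with an array left out 6 to 8 did.

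**Figure D1:**
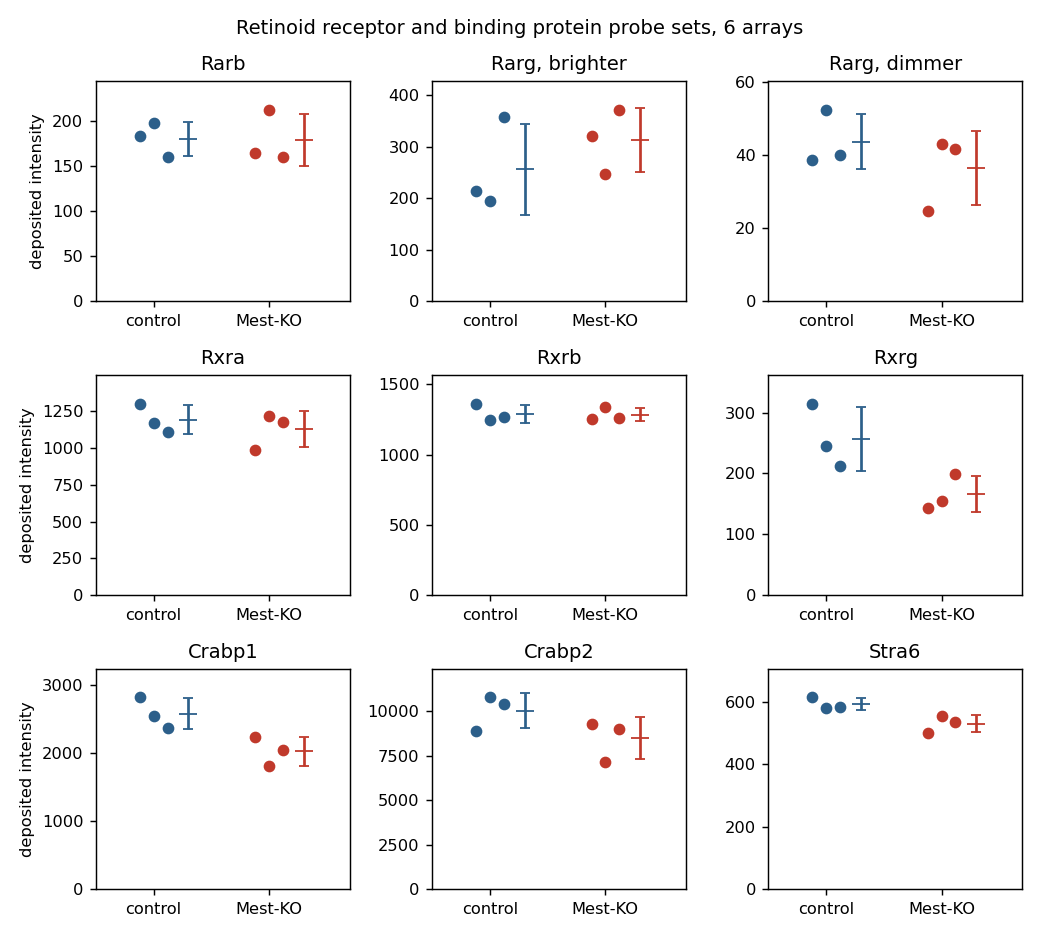
Deposited intensity (vertical axis, from 0) of the 9 member probe sets tested, in the 3 control arrays (blue) and the 3 Mest-KO arrays (red), with the mean and SD beside the points. The groups do not overlap for Rxrg, Crabp1 and Stra6, and they overlap in the other panels.

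Among the tested probe sets of the retinoid X receptors, that of Rxrg gave the largest difference. Its intensity was 144, 155 and 199 on the arrays Mest-KO 1, 2 and 3, and 315, 245 and 212 on control 1, 2 and 3. Every Mest-KO array thus lay below every control array, with a narrow gap between Mest-KO 3 and control 3. The group means were 257 ± 52.8 (SD, n = 3) for control and 166 ± 29.5 (SD, n = 3) for Mest-KO. After normalization Rxrg was lower by 1.60-fold, a log2 difference of -0.67 (SE 0.172) whose 95% confidence interval spans -1.09 to -0.26. The unadjusted limma p was 0.00744, which ranked 158 of 27022, and the adjusted p was 0.969. Leaving out single arrays moved it between -0.81 and -0.54.

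Rxrb, the retinoid X receptor with the steadiest values, had intensities of 1254, 1341 and 1261 in Mest-KO and 1364, 1247 and 1265 in control. The groups overlapped almost wholly. The difference was -0.0025 (SE 0.0924), and its interval from -0.23 to 0.22 leaves room for a fold between 0.854 and 1.17. Rxra was read by its bright probe set at 991, 1217 and 1181 in Mest-KO and at 1304, 1170 and 1111 in control. These values overlapped too, with a difference of -0.08 (SE 0.127, 95% confidence interval -0.39 to 0.23).

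The other 2 probe sets of Rxra lay below the filter and were not tested. One read 19.0, 23.0 and 47.0 in Mest-KO and 43.6, 24.6 and 36.4 in control. The other stood at 2.02 or less on 5 of the arrays and at 42.9 on Mest-KO 3. Its difference of 1.65 rested on that array and was 0.27 without it. That array also had the highest median intensity over all probe sets, 91.0 against 62.1 to 71.0, and the fewest probe sets under an intensity of 16, 18.6% against 23.5% to 26.9%. The part of the array in this value was not tested.

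Of the retinoic acid receptors, Rarb is the one whose promoter holds the DR5 repeat shown above. Its intensity was 165, 213 and 160 in Mest-KO and 184, 198 and 160 in control. The highest and the lowest normalized values were both from Mest-KO arrays, and the groups overlapped. The difference was -0.09 (SE 0.185). Its 95% confidence interval spans -0.54 to 0.36, or a fold between 0.688 and 1.28. Its sign changed when Mest-KO 3 or control 2 was left out.

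Rarg was read by a brighter and a dimmer probe set, and the differences had opposite signs. The brighter one had intensities of 322, 248 and 372 in Mest-KO and 215, 195 and 358 in control. Control 3 lay within the Mest-KO values, while the other controls lay below them. The difference was 0.28 (SE 0.263, 95% confidence interval -0.37 to 0.92). Without control 3 it was 0.54 with an unadjusted p of 0.0380 (limma adjusted p 0.972), and without control 2 it was 0.14. The dimmer probe set, just above the filter, had 24.7, 43.0 and 41.7 in Mest-KO and 38.8, 52.4 and 39.99 in control. After normalization its log2 level on Mest-KO 3 was 4.74, the lowest of the 6 arrays, and the difference was -0.49 (SE 0.268, 95% confidence interval -1.15 to 0.16). With the deposited scaling alone it was -0.29, without control 2 it was -0.29, and without Mest-KO 2 it was -0.71 with an unadjusted p of 0.0260 (limma adjusted p 1). With the replicate number as a block its unadjusted p was 0.0111 (limma adjusted p 0.954).

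Rara was read by 1 probe set, below the filter, and was not tested. Its values fell into a higher and a lower set that crossed the groups. Mest-KO 1, control 2 and control 3 stood at 60.7, 51.4 and 58.7, while Mest-KO 2, Mest-KO 3 and control 1 stood at 6.03, 14.8 and 7.90. The difference between the groups was -0.92, and leaving out single arrays moved it between -1.90 and -0.26, so the position of single pools decided its size.

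**Figure D2:**
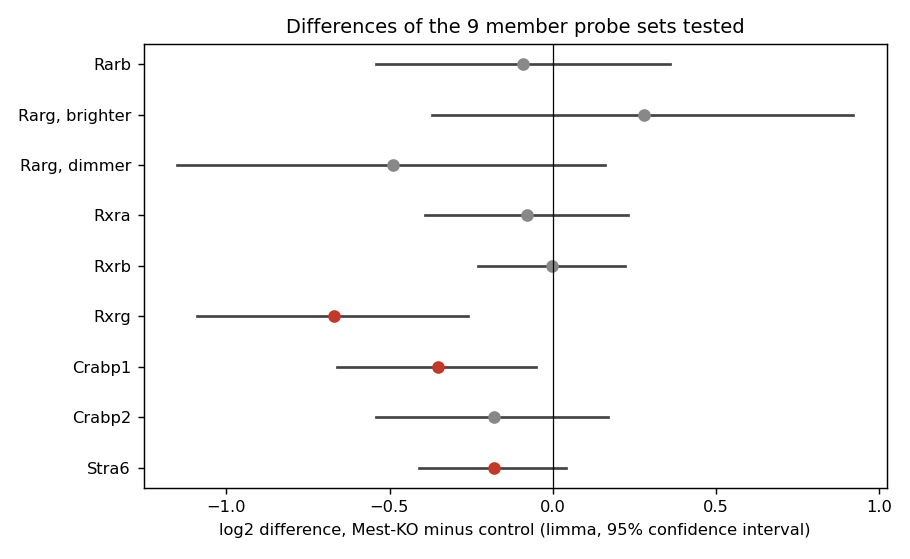
Log2 difference, Mest-KO minus control, of the 9 member probe sets tested (horizontal axis), with the 95% confidence interval of the limma fit as a line. Red points mark Rxrg, Crabp1 and Stra6, whose groups did not overlap. The unadjusted intervals of Rxrg and Crabp1 lie wholly below 0.

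Both cellular retinoic acid binding proteins had a lower mean in Mest-KO, and only the groups of Crabp1 were separate. Crabp1 had intensities of 2232, 1804 and 2037 in Mest-KO and 2818, 2546 and 2370 in control. The lowest control array lay above the highest Mest-KO array. The means were 2024 ± 214 (SD, n = 3) and 2578 ± 226 (SD, n = 3). Crabp1 was 1.28-fold lower (log2 difference -0.35, SE 0.125, 95% confidence interval -0.66 to -0.05), with an unadjusted limma p of 0.0295, which ranked 600 of 27022, and an adjusted p of 0.969. With a variance prior that follows the level (limma's trend option) the unadjusted p was 0.00495 and the adjusted p 0.962. Leaving out single arrays gave -0.42 to -0.27. The unadjusted limma p of Crabp1 was above 0.05 without Mest-KO 2 (0.0829), Mest-KO 3 (0.0554), control 1 (0.0955) or control 2 (0.0639). It was also above 0.05 without the filter (0.0555), and under 0.05 in 12 of the 17 alternatives with a fit.

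Crabp2 had 9322, 7138 and 9031 in Mest-KO and 8913, 10795 and 10430 in control. Mest-KO 1 and Mest-KO 3 lay above control 1, so the groups overlapped. The means were 8497 ± 1186 (SD, n = 3) and 10046 ± 998 (SD, n = 3), and the difference was -0.18 (SE 0.145, 95% confidence interval -0.54 to 0.17). Without Mest-KO 2, the lowest array, it was -0.04. Whether Crabp1 and Crabp2 differ in their response was not tested.

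Stra6, the receptor for the retinol carrier, had 499, 554 and 535 in Mest-KO and 614, 581 and 584 in control. All Mest-KO arrays lay below all control arrays, and the spread within each group was small. The means were 529 ± 28.1 (SD, n = 3) and 593 ± 18.2 (SD, n = 3), so that Mest-KO stood at 89.3% of control. The difference was -0.18 (SE 0.0917, 95% confidence interval -0.41 to 0.04), with an unadjusted limma p of 0.0925 and an adjusted p of 0.969. Leaving out single arrays gave -0.22 to -0.13.

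**Figure D3:**
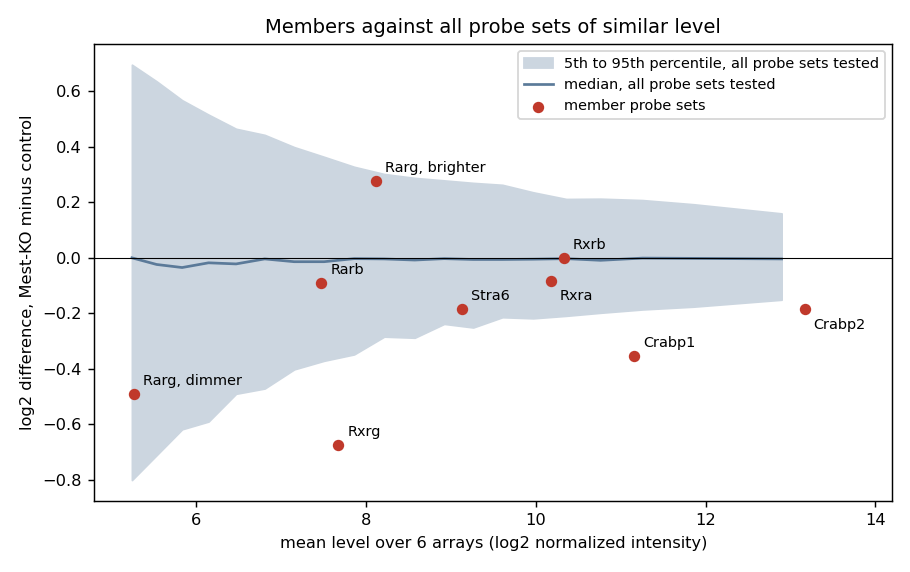
Log2 difference, Mest-KO minus control (vertical axis), against the mean level over the 6 arrays (horizontal axis, log2 normalized intensity) for the 9 member probe sets tested (red), over the median and the 5th to 95th percentile of all 27022 probe sets in 20 bins of level (blue). Rxrg, Crabp1 and Crabp2 lie below the 5th percentile of their bins, and the other 6 probe sets lie within the band.

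The size of a difference depended on level over the whole array, and the members were read against it. In the bin of 1351 probe sets with a level like that of Rxrg, the 5th percentile was -0.37. In the bin of Crabp1 it was -0.19, and the 1.28-fold difference of that bright gene lay further out than the -0.49 of the dimmer Rarg probe set, whose bin had a 5th percentile of -0.80. Crabp2 lay just past the 5th percentile of its bin, at -0.15. Stra6 lay inside its band, which began at -0.25.

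Markers of the tissues that a dissection can hold were read in the same pools. The marker list of the otic epithelium, with 15 of 16 genes measured and all 15 above the filter, had a summed intensity of 52738 to 57094 in Mest-KO and 57837 to 59883 in control, without overlap. Of its genes 9 had a difference below 0 and 6 above, with a median of -0.03. The mesenchyme list, with 12 of 12 genes above the filter, had sums of 3270 to 7718 in Mest-KO and 2844 to 5733 in control, so mesenchyme RNA was present in both groups. Of its genes 3 lay below 0 and 9 above, with a median of 0.43. The sums of the neural crest and glia list (6 of 8 genes measured, 5 above the filter) were 12847 to 13745 and 13348 to 13503, and Foxd3 lay below the filter. Of the 5 genes 1 lay below 0 and 4 above, with a median of 0.04. The hindbrain list (7 of 8 measured, 4 above the filter) ran from 374 to 1240 and from 377 to 1014. Of these 4 genes 2 lay below 0 and 2 above, with a median of -0.10. All 3 endothelial genes above the filter, of 7 measured, lay above 0, with a median of 0.29 and sums of 317 to 473 and 290 to 363. The sums of the ganglion neuron and red blood cell lists overlapped as well. Of the ganglion neuron genes above the filter, 4 lay below 0 and 2 above, with a median of -0.04. For red blood cells 3 lay below 0 and 2 above, with a median of -0.05. Sums follow the brightest genes, and single markers did separate the groups. Of the 50 marker genes of these 7 tissue lists above the filter, 8 did not overlap after normalization, or 16%, against the background of 9.37%. Gata3 (-1.02), Krt8 (-0.20) and Krt18 (-0.21) of the epithelium and Lhx1 (-0.67) of the hindbrain were lower in every Mest-KO array than in every control. Neurod1 (0.57), of the ganglion neurons, Snai2 (0.56), of the mesenchyme, Cdh6 (0.69), of the neural crest list, and Jag1 (0.13), of the epithelium, were higher. No list held a gene at 0, since the deposited values are all positive. Mest-KO 1 had Xist at 16.1 and control 2 had the Y-linked gene Eif2s3y at 12.1, each far below the other pools. The part of these differences in Rxrg, Crabp1 and Stra6 was not tested, and fewer cells of a type and less RNA per cell cannot be told apart in such pools. Tbx1 was read at 775 in Mest-KO and 785 in control, a difference of -0.03 with an exact two-sided permutation p of 1. With 3 arrays a group such a test cannot go below 0.1. The deletion was directed at mesoderm, so the probe set is no check of the group labels.

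Genes with a pattern like that of a member were named for the 3 members with the largest SD over the 6 arrays, Rara, Rxrg and Rarg, each at its brightest probe set. The measure was the Pearson correlation over the 6 arrays among 6034 probe sets with an SD of at least 0.3. With so many probe sets and only 6 arrays, high values are common, and 34 to 54 genes exceeded 0.9 for each member. They are a description of these pools.

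For Rara, the closest were Tmem267 (r = 0.990) and Paip1 (r = 0.989). Tmem267 had 241, 96.1 and 126 in Mest-KO and 87.2, 239 and 223 in control, so Mest-KO 1, control 2 and control 3 were high, as for Rara. Paip1 had 68.5, 26.3 and 48.7 in Mest-KO and 35.7, 58.7 and 62.2 in control, with the same 3 arrays above the others. Tmem267 and Paip1 are close neighbours in the RefSeq annotation (GRCm38.p6), with 1 annotated gene between them, and they lie on another chromosome than Rara.

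For Rxrg the closest were Rbm3os (r = 0.980) and Ablim1 (r = 0.980). Ablim1, which encodes an actin-binding LIM protein, had 128, 128 and 156 in Mest-KO and 223, 183 and 157 in control, and Rbm3os had 32.7, 41.7 and 64.0 against 77.8, 52.7 and 52.7. Control 1 was the highest array for both, as it was for Rxrg. For Rarg they were Amn1 (r = 0.994) and Prcp (r = 0.977). Amn1 had 326, 269 and 381 in Mest-KO and 248, 215 and 366 in control, so control 3 again stood with the Mest-KO arrays.

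**Figure D4:**
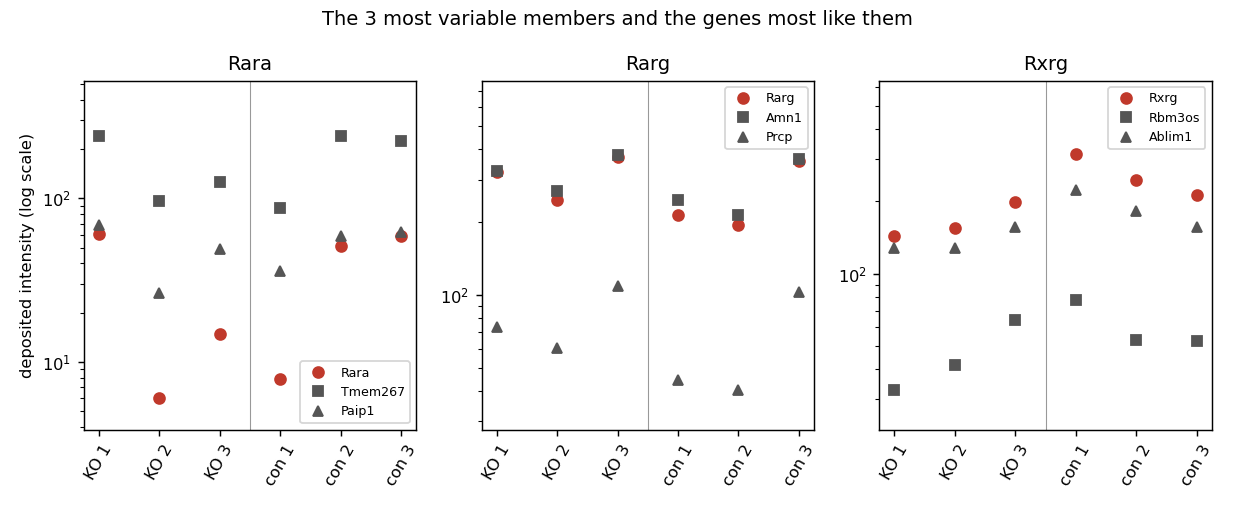
Deposited intensity (vertical axis, log scale) on the 3 Mest-KO (KO) and 3 control (con) arrays of Rara, Rarg and Rxrg (red) and, in grey, of the genes whose pattern over the 6 arrays was most like each. Rara, Tmem267 and Paip1 are all high on KO 1, con 2 and con 3.

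Other genes of the retinoid pathway were read from 4 lists, each gene from its brightest probe set, and none of their genes passed over all probe sets (limma, 0 called in either direction in each list, at a background of 0%). At an unadjusted p under 0.05 none of these brightest probe sets passed either. Among genes that supply or remove retinoic acid, 9 of 14 were above the filter, with 7 below 0 and 2 above and a median of -0.08. Aldh1a1, a retinaldehyde dehydrogenase gene, differed by -0.27 (SE 0.155), and Aldh1a2, of the same family, by -0.08 (SE 0.112). Cyp26a1, which encodes an enzyme that degrades retinoic acid, differed by -0.11 (SE 0.131). The 2 genes above 0 were Cyp26b1, of the same family as Cyp26a1, at 0.17 (SE 0.176), and Rdh10, at 0.08 (SE 0.106). The other probe set of Rdh10 gave -0.02. Among the genes below 0, Aldh1a3 differed by -0.04 (SE 0.207), and its other tested probe sets gave 0.01 and 0.05. Fabp5 differed by -0.0024 (SE 0.0978), and its other probe set gave -0.09. The gene with the smallest p was Ttr, which encodes transthyretin, the partner of the retinol carrier in blood. Its brightest probe set had 37.3, 106 and 435 in Mest-KO and 1042, 4536 and 111 in control. The spread within the controls alone covered more than an order of magnitude, and the groups overlapped.

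Of the corepressors and coactivators that nuclear receptors recruit, 11 of 13 were above the filter, with 9 above 0 and 2 below and a median of 0.04. Their differences were small, from -0.03 to 0.17. The smallest p belonged to a second probe set of Sin3a, a corepressor scaffold gene, at -0.26 (SE 0.112), lower in Mest-KO without overlap. The brightest probe set of Sin3a gave -0.03 and overlapped. In the same list the brightest probe set of Tbl1xr1 was higher without overlap, at 0.15 (SE 0.0893), and its other tested probe sets overlapped. Of the nuclear receptors that pair with retinoid X receptors, 5 of 11 were above the filter, 3 below 0 and 2 above. The one with the smallest p was Nr4a2, at 1244, 1032 and 889 in Mest-KO and 875, 794 and 867 in control. These groups did not overlap, by a narrow margin, and the difference was 0.30 (SE 0.137). Its 3 other tested probe sets overlapped and gave -0.04, -0.18 and 0.48.

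Of the genes induced by retinoic acid in embryos, 9 of 16 were above the filter, with 8 below 0 and 1 above and a median of -0.16. These counts rest on the brightest probe set of each gene. For Meis2 it gave -0.02, while the other tested probe sets gave 0.23, 0.22 and 0.15, the last higher without overlap. For Meis1 the brightest gave -0.24 and the other tested ones -0.20 and -0.35. For Hoxa3 the brightest gave -0.24 (SE 0.785), with values from 10.2 to 109, and the other tested one gave 0.14 (SE 0.549). Dhrs3, a retinaldehyde reductase gene, differed by -0.15 (SE 0.131) and Tgm2, a transglutaminase gene, by -0.24 (SE 0.188). The other tested probe sets of Tgm2 gave 0.21 and -0.10. Dhrs3 and Cyp26a1 stand in this list and in that of supply and removal. The smallest p was that of Nr2f2, which encodes the orphan receptor COUP-TFII, at a probe set with 319, 347 and 376 in Mest-KO and 453, 452 and 558 in control. Its difference was -0.52 (SE 0.130, unadjusted limma p 0.00709, adjusted p 0.969). At its brightest probe set, with 3608, 4323 and 3821 against 4362, 4583 and 4423, the groups did not overlap either, and the difference was -0.16. A further probe set gave -0.37 (SE 0.116), 2 others gave -0.17 and -0.01, and 1 below the filter gave 0.73.

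**Figure D5:**
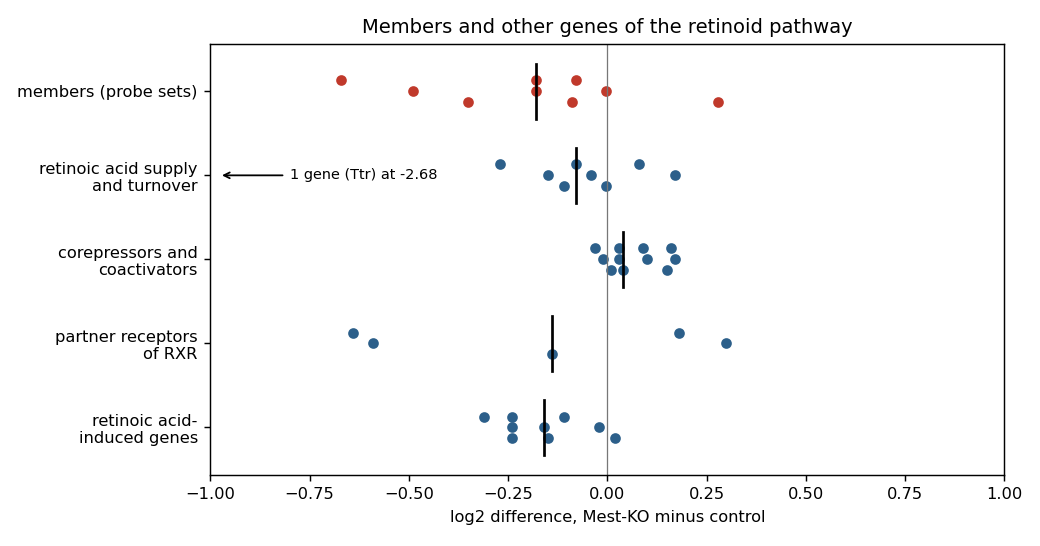
Log2 difference, Mest-KO minus control (horizontal axis), of the 9 member probe sets tested (red) and of the tested genes of the 4 pathway lists (blue), each gene at its brightest probe set, with the median of each row as a black line. Ttr, at -2.68, lies outside the axis and is marked by an arrow.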

How the data were processed

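RNA from 6 pools of microdissected otic vesicles was hybridised to Affymetrix mouse arrays, 1 pool per array. The tool named in the submitters' processing notes is Affymetrix Expression Console 1.1. The authors deposited linear intensities, 1 per probe set and array, which average 500 on each array once 2% is trimmed from either end. How probes were summarised and background was corrected is not stated in the sources used here. A common scaling does not equalise the distributions of the arrays. Precision is limited by the number of arrays.

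Of 45101 probe sets, 64 controls were left out. The platform annotation gave 1 symbol to 34945 probe sets, several to 932 and none to 9160. Of the probe sets with 1 symbol, 34741 were matched by gene identifier to RefSeq (GRCm38.p6), whose symbol was used. Values were raised to at least 1, transformed to log2 and quantile normalized. The 27022 probe sets with a mean above the 40th percentile were fitted with limma 3.58.1 in R 4.3.3 (lmFit, eBayes without trend, no covariate) and adjusted by Benjamini-Hochberg over all of them. Plots were made in Python 3.11.15 using matplotlib 3.10.9. The steps were tested on simulated data.

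Every member probe set was named, with Tbx1, the member of each pathway list with the smallest p, and for the 3 most variable members the 2 genes with the highest correlation. The other pathway genes, the further probe sets and the marker genes named were chosen after their values were seen. The members and lists were chosen with earlier results of these data known. Deviations from the group means of same-numbered arrays correlated at -0.041, -0.007 and 0.033, so no shared effect of the number was seen over all probe sets tested. These values cannot show whether same-numbered pools were collected together, and the reported fit had no pairing. Alternatives were other normalizations, floors, filters and variance priors, a block for the replicate number, array weights, each array left out, 1 probe set a gene and a plain two-sample statistic.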

Additional observations from a re-analysis of the deposited data

How the results depend on the processing

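The count of member probe sets called stayed at 0, as did that of pathway genes, under each of the 17 alternatives with a fit, including each array left out. The count over all probe sets, 0 in the reported fit, was 15 with median centring, 1 without a filter, 9 where dim probe sets up to the 60th percentile were removed, 14 with the variance trend, 17 with the trend and robust fitting, and 1 at a threshold of 0.10. It was 0 with each array left out. With the replicate number as a block the count was 0, and the block changed no call. The cause of these differences was not tested. Median centring moved the median of all probe sets to -0.12, with 73.0% of them below 0, and gave -0.78 for Rxrg, -0.50 for Crabp1, -0.40 for Crabp2 and -0.31 for Stra6. With the deposited scaling alone 44.2% of all probe sets lay below 0. Of the 178 values of member probe sets under the alternatives, 171 kept their direction, and 7 changed sign, all of differences near 0. A kept direction does not mean a kept size. The dimmest probe set of Rxra, not tested, moved from 1.65 to 0.26 with a floor at 16. When single arrays were left out, Rarb lay between -0.24 and 0.04, the bright probe set of Rxra between -0.14 and 0.02, and Rxrb between -0.04 and 0.03. Rxrb was 0.01 with array weights. The difference of Tbx1 lay between -0.14 and 0.06 when single arrays were left out. The unadjusted p of Rxrg stayed under 0.05 in all 17 alternatives and that of Crabp1 in 12 of them.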
